A study of Mus musculus with 12 samples.

Results

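Fibroblasts in injured or fibrotic muscle send signals to immune cells, and 9 genes of this kind were examined in hernia-associated fibroblasts (HAFs): the chemokines Cxcl12, Cxcl1, Ccl2 and Ccl7, the cytokines Csf1, Il6, Lif and Il33, and Nfkbia, which encodes an inhibitor of NF-kappaB. The genes were chosen with earlier results of these data known, and 8 of them are described here among the 13233 genes measured; Il6 was not analysed here. HAFs are primary skeletal muscle fibroblasts cultured from the lower abdominal muscle (LAM) of Aromhum mice, which carry human aromatase, the enzyme that makes estradiol (E2) from testosterone. They were enriched by their early adherence to the culture plate and passaged once, so each library is a bulk culture and not a sorted cell type. RNA-Seq covered 12 libraries from 4 groups of 3, all from Aromhum cells held for 48 h in medium with little charcoal-stripped serum: vehicle (ethanol and DMSO), E2 at 10 nM, the same E2 dose plus fulvestrant at 100 nM, and that dose of fulvestrant by itself. Fulvestrant, an antagonist that also lowers the amount of estrogen receptor-α (ESR1), was given before E2. The age of the mice and whether the replicates came from separate mice, cultures or days are not given in the sources used here, so p-values measure only the spread between these samples.

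Chemokines are small secreted proteins that direct the migration of leukocytes through receptors on their surface. CXCL12 retains and recruits CXCR4-bearing cells and is a constitutive product of stromal cells, whereas CXCL1 recruits neutrophils and CCL2 and CCL7 recruit monocytes. CSF1 sustains macrophages, LIF and IL-6 signal through the shared receptor chain gp130 to JAK and STAT3, and IL-33 is a nuclear cytokine that alerts cells carrying its receptor ST2. Many of these genes are induced by NF-kappaB, which IκBα, the product of Nfkbia, holds in the cytoplasm. Nfkbia is itself an NF-kappaB target and is often read as a sign of the activity of that pathway.

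The promoter stretches of 4 members are printed here because they show where the members differ in a motif of the pathway that Nfkbia restrains. Each is the RefSeq sequence (GRCm38.p6) from 250 to 11 bases before the gene's start, on the gene's own strand, and capitals mark matches to the NF-kappaB consensus on either strand.
Cxcl1 (chr5:90890995-90891234, plus strand): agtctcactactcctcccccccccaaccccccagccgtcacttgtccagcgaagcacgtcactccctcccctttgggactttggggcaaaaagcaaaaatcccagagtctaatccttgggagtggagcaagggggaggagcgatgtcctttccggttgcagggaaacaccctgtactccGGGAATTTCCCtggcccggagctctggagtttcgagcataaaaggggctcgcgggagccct
Csf1 (chr3:107760480-107760719, minus strand): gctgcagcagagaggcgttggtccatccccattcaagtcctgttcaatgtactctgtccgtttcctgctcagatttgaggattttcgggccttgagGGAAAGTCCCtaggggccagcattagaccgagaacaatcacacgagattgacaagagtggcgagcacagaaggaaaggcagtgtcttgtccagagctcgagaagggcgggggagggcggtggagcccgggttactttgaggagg
Nfkbia (chr12:55492658-55492897, minus strand): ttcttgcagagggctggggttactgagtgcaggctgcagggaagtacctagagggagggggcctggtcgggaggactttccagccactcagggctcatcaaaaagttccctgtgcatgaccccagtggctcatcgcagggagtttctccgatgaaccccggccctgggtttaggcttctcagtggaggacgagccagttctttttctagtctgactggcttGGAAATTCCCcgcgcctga
Cxcl12 (chr6:117168285-117168524, plus strand): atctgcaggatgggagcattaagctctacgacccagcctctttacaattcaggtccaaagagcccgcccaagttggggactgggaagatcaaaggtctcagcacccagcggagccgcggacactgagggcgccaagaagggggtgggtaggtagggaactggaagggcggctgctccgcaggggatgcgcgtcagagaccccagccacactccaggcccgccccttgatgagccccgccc
The consensus was found 71 to 61 bases before the start of Cxcl1, where matches on both strands overlap, 154 to 145 bases before that of Csf1 and 29 to 20 bases before that of Nfkbia. It was not found in the windows of Cxcl12, Lif and Il33, and 3.75% of 32851 windows of the same length held it. Ccl2 and Ccl7 have no entry in the table used. The full estrogen response element was in 0.0578% of windows and in none of the 6 members' windows. A single arm of that element, GGTCA, was in 34.2% of windows and, among the members, in that of Nfkbia. The AP-1 motif TGANTCA was in the window of Lif and in 6.58% of all windows. The GC box GGGCGG, searched like the others on both strands, was in those of Cxcl12 and Csf1 and in 31.3% of all. A match is only a match of letters, and binding was not measured in these libraries.

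Before the treatments are compared, the libraries numbered replicate 1 need description, since in all 4 groups they stood apart for these genes. Cxcl1 had 38.6 to 108 normalized counts (reads divided by the authors' factor for the sample) in the 4 libraries of replicate 1 and 358 to 583 in the 8 of replicates 2 and 3. Ccl7 had 164 to 307 and 670 to 1033, and Il33 76.9 to 170.4 and 355 to 505. Lif ranged from 53.2 to 102 in replicate 1 and from 125 to 170.3 in the others. Csf1 ranged from 11862 to 15079 against 17326 to 26155, and Nfkbia from 851 to 1061 against 1139 to 1323. These 6 genes had no overlap between replicate 1 and the other numbers. Cxcl12 (1878 to 2932 against 2591 to 4027) and Ccl2 (307 to 949 against 772 to 1039) did overlap. The share of all genes without such overlap was not counted, so this split does not set the members apart from other genes.

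**Figure D1:**
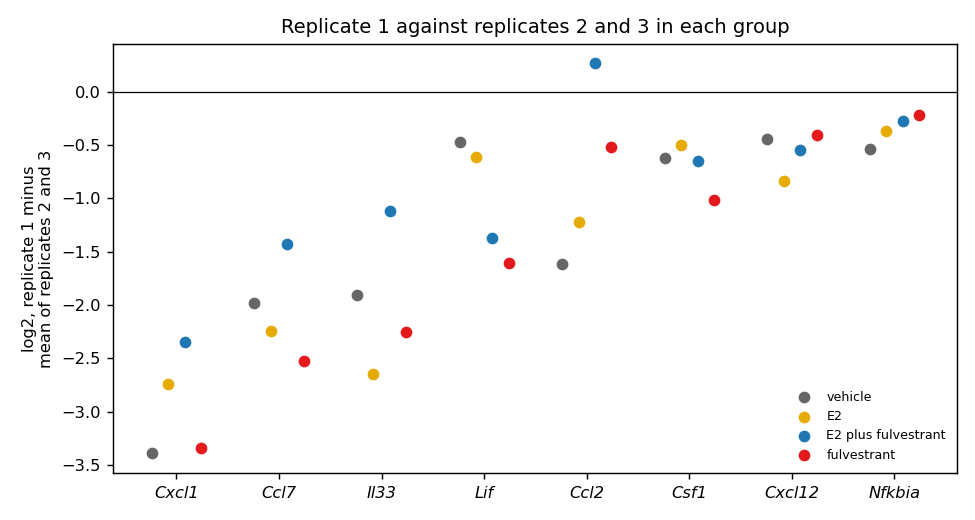
Each point is 1 group's log2 difference between the normalized count + 1 of replicate 1 and the mean of replicates 2 and 3 (vertical axis), for the 8 genes ordered by that difference. All points but that of Ccl2 in E2 plus fulvestrant lie below 0, and Cxcl1 reaches -3.39.

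Averaged over the groups, the gap was -2.95 on the log2 scale for Cxcl1, -2.04 for Ccl7, -1.98 for Il33, -1.01 for Lif, -0.77 for Ccl2, -0.69 for Csf1, -0.56 for Cxcl12 and -0.35 for Nfkbia. The replicate number held 93.5% of the variance of Ccl7, 93.3% of that of Cxcl1 and 92.1% of that of Il33, and the treatment group held at most 4.49% for these 3 genes. For Cxcl12 the shares were nearest to each other, with 52.0% for the replicate number and 42.0% for the group. limma's F test of the replicate number called all 8 members, with adjusted p from 1.8e-07 for Cxcl1 to 0.0337 for Ccl2, but 62.5% of all genes were called by it. Without replicate 1, the F test called 0 of the 8, and 0 of all genes. Of 8 fibroblast markers 3 were lower in every library of replicate 1 than in any other: Thy1 had 36.9 to 78.3 normalized counts in replicate 1 and 362 to 562 in the others, Dcn 31792 to 36399 and 70600 to 115800, and Pdgfra 23150 to 25827 and 27501 to 40301. Col1a2 was higher in replicate 1, at 183610 to 266340 and 92403 to 155880, and Col1a1, Esr1, Pdgfrb and Vim overlapped. Of the 3 macrophage and leukocyte markers measured Lyz2 was higher in replicate 1, at 105 to 340 and 51.3 to 97.4, and Cd68 and Cd14 overlapped. Tek, a marker of endothelial cells, had 58.5 to 83.7 and 157 to 277. The part of these differences in the members' levels was not tested. Since every group has 1 library of each number, the number entered each fit as a block.

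As a check of the cell type, all 8 fibroblast markers listed were measured (Pdgfra, Esr1, Col1a1, Col1a2, Dcn, Thy1, Pdgfrb and Vim). Their summed level ranged from 361140 to 466380 normalized counts in vehicle, 400170 to 495770 in E2, 312360 to 376990 in E2 plus fulvestrant and 296500 to 403020 in fulvestrant. Of 10 macrophage and leukocyte markers 3 were measured (Cd68, Lyz2 and Cd14), with sums of 233 to 487, 168 to 447, 222 to 321 and 266 to 285 in the same order of groups. The leukocyte marker Ptprc, the macrophage marker Adgre1 and the CSF1 receptor Csf1r were not analysed here. Of 6 endothelial markers only Tek was measured, at 58.5 to 277, 65.1 to 166, 83.7 to 259 and 70.6 to 193 in the same order, and none of the 7 myogenic and 4 adipocyte markers was. In bulk samples, fewer cells of a type and less RNA per cell cannot be told apart. Libraries held between 18827792 and 44040507 reads on these 13233 genes (median 31703872), and every listed gene had at least 10 reads in each library.

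Csf1 was the most abundant of the 8 transcripts. Per kilobase of exon it averaged 3519 normalized counts over the 12 libraries, above 98.1% of the genes measured, and its lowest library (2246) was above the highest library of any other member (1290 for Ccl7). Ccl7, Nfkbia and Ccl2 followed at 769, 702 and 682 per kilobase, with ranges of 205 to 1290, 529 to 822 and 269 to 913 that overlapped, so their order is not settled by these libraries. Cxcl12 averaged 358 per kilobase (230 to 493), Cxcl1 182 (20.6 to 311) and Il33 114 (26.7 to 175), and each overlapped with its neighbours in this order. Lif was the lowest at 29.2 per kilobase (12.2 to 39.1), overlapping with Cxcl1 and Il33 through the libraries of replicate 1.

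**Figure D2:**
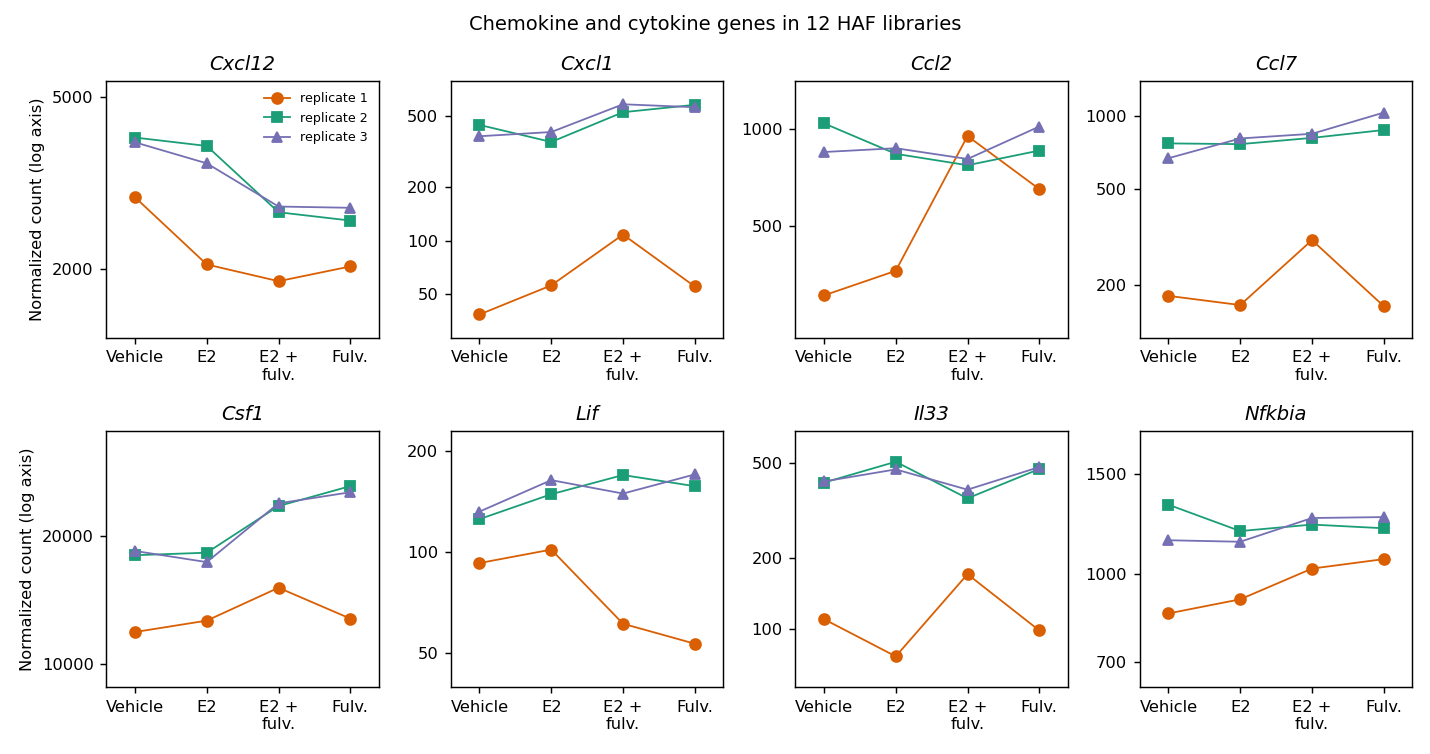
Normalized counts (log axis, a different range in each panel) of the 8 genes in the 12 libraries, by group, with a line for each replicate number. Cxcl12 falls and Csf1 rises from the groups without fulvestrant to those with it in each of the 3 lines, while Ccl2 is higher with fulvestrant in the line of replicate 1 and overlaps in the others.

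Fulvestrant changed 2 of the 8 genes, in opposite directions, and did so with and without E2. Cxcl12 fell and Csf1 rose. Of the 8 members 2 were called between E2 and E2 plus fulvestrant, beside 9.6% of all 13233 genes, and 2 between fulvestrant and vehicle, beside 12.5% of all genes. A gene was called at a limma adjusted p under 0.05 over all genes and a fold over 1.2. Counts this small do not set the members apart from the other genes. Of the genes called between fulvestrant and vehicle 54.3% were higher with fulvestrant, and 42.0% after rescaling to CPM (each library scaled to the same total). The comparisons share no library, and all 8 members had the same sign of the fulvestrant difference in both, as did 73.85% of all genes. All 4 calls of members rest on the replicate block: without it, 0 members were called in either comparison, and genes called in all went from 1270 to 69 and from 1648 to 72.

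Cxcl12 (ENSMUSG00000061353; GRCm38 chromosome 6, 117168535 to 117181367, plus strand) had 2932, 4027 and 3926 normalized counts in vehicle replicates 1, 2 and 3. It had 2053, 3851 and 3511 in E2. In E2 plus fulvestrant it had 1878, 2708 and 2792, and in fulvestrant 2031, 2591 and 2773. Within every replicate number both libraries with fulvestrant were below both without it. With the numbers ignored, vehicle and fulvestrant did not overlap, and E2 and E2 plus fulvestrant did. Group means were 3629 ± 605 (SD, n = 3) in vehicle, 3138 ± 955 in E2, 2459 ± 505 in E2 plus fulvestrant and 2465 ± 387 in fulvestrant. Between fulvestrant and vehicle, Cxcl12 fell by 32.0%, a log2 difference of -0.56 (SE 0.086, limma adjusted p = 0.00190). It was 1.25-fold higher in E2 than in E2 plus fulvestrant, a log2 difference of 0.32 (SE 0.086, limma adjusted p = 0.0345). Without the replicate block the limma adjusted p was 0.664 and 0.978. Leaving out replicate 3 of all groups ended the call between fulvestrant and vehicle (limma adjusted p = 0.0600). The call between E2 and E2 plus fulvestrant was lost without E2 replicate 2 (0.145) or 3 (0.127), and without E2 plus fulvestrant replicate 1 (0.104), 2 (0.1295) or 3 (0.0963). It was also lost without replicate 2 (0.271) or 3 (0.233) of all groups, and with no variance trend (0.0802). The summed fibroblast markers, given by group in the check of the cell type, also ran lower in the groups with fulvestrant. Their ranges overlapped between fulvestrant and vehicle but not between E2 and E2 plus fulvestrant. The sum is carried mostly by abundant markers such as Col1a2 (median 127770 normalized counts), with Esr1 at a median of 234. Its part in the Cxcl12 difference was not tested.

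Csf1 (ENSMUSG00000014599; chromosome 3, 107741048 to 107760469, minus strand) moved the other way. Its normalized counts were 11862, 17986 and 18404 in vehicle replicates 1, 2 and 3, and 12618, 18233 and 17326 in E2. They were 15079, 23476 and 23824 in E2 plus fulvestrant and 12758, 26155 and 25299 in fulvestrant. Both libraries with fulvestrant were above both without it in each replicate number, by least in replicate 1. Group means were 16084 ± 3662 (SD, n = 3) in vehicle, 16059 ± 3014 in E2, 20793 ± 4952 in E2 plus fulvestrant and 21404 ± 7500 in fulvestrant. Csf1 was 1.29-fold higher in fulvestrant than in vehicle, a log2 difference of 0.37 (SE 0.094, limma adjusted p = 0.0239). In E2 plus fulvestrant it was 1.28-fold higher than in E2, a log2 difference of -0.36 for E2 minus E2 plus fulvestrant (SE 0.094, limma adjusted p = 0.0315). Without the block the limma adjusted p was 0.950 and 0.992. The call between fulvestrant and vehicle was lost without vehicle replicate 2 (0.0921) or 3 (0.0774), without fulvestrant replicate 2 (0.119) or 3 (0.113), without replicate 2 (0.250) or 3 (0.241) of all groups, with no variance trend (0.0516) and in a fit of only the groups compared (0.117). The call between E2 and E2 plus fulvestrant was lost without E2 replicate 2 (0.114) or 3 (0.148), without E2 plus fulvestrant replicate 1 (0.117), 2 (0.0873) or 3 (0.109), without replicate 2 (0.194) or 3 (0.252) of all groups and with no variance trend (0.0657).

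**Figure D3:**
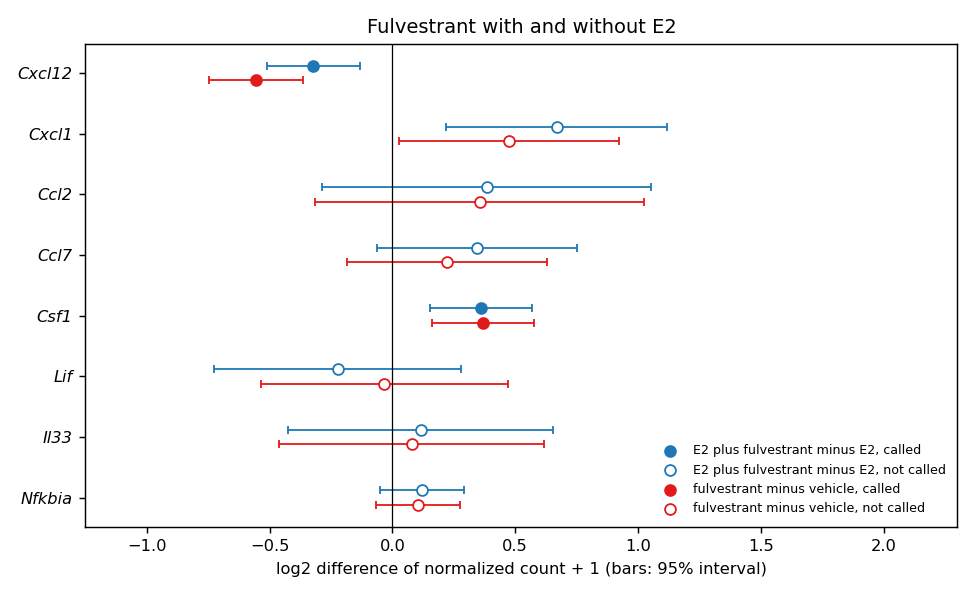
Log2 difference of the normalized count + 1 (horizontal axis) with its 95% interval from limma for each of the 8 genes, between E2 plus fulvestrant and E2 (blue) and between fulvestrant and vehicle (red). Filled points are called: Cxcl12 lies below 0 and Csf1 above 0 in both, and the intervals of Ccl2, Ccl7, Lif, Il33 and Nfkbia span 0.

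Cxcl1 (ENSMUSG00000029380; chromosome 5, 90891241 to 90893115, plus strand), the neutrophil chemokine, had the largest difference of the members between E2 and E2 plus fulvestrant but did not pass the test. It had 38.6, 446 and 386 normalized counts in vehicle replicates 1, 2 and 3 and 56.2, 358 and 407 in E2. It had 108, 526 and 583 in E2 plus fulvestrant and 55.4, 579 and 561 in fulvestrant. In replicates 2 and 3 both libraries with fulvestrant were above both without it. In replicate 1, fulvestrant alone lay just below E2. The log2 difference was -0.67 for E2 minus E2 plus fulvestrant (SE 0.20, limma adjusted p = 0.0574) and 0.47 for fulvestrant minus vehicle (SE 0.20, limma adjusted p = 0.142), with the same sign in 3 of 3 replicate numbers in each comparison. The first passed the threshold in a fit of only the groups compared (limma adjusted p = 0.0225), with a pseudocount of 10 (0.0476), after quantile normalization (0.0484), as CPM (0.0458), without vehicle replicate 1 (0.0344) and without fulvestrant replicate 1 (0.0355). Without the replicate block the limma adjusted p was 0.995 for the first and 0.968 for the second. The first shrank to -0.40 without E2 plus fulvestrant replicate 1 (limma adjusted p = 0.222). Over the 15 fits that left out a library or a replicate number it ran from -0.85 to -0.40. Its adjusted p in these fits was highest without replicate 3 of all groups (0.244). The second ran in the same fits from 0.28 without vehicle replicate 1 (limma adjusted p = 0.410) to 0.65. Its adjusted p in them reached 0.484 without replicate 3 of all groups.

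With replicate 1 left out of all groups, 4 members were called in each of these comparisons. Between E2 and E2 plus fulvestrant these were Cxcl12 (log2 0.42, limma adjusted p = 0.00175), Csf1 (-0.41, 0.00197), Cxcl1 (-0.53, 0.0113) and Il33 (0.40, 0.0252), which has the opposite sign when replicate 1 is included. Between fulvestrant and vehicle they were Cxcl12 (-0.57, 2.1e-04), Csf1 (0.50, 4.5e-04), Cxcl1 (0.46, 0.0175) and Ccl7 (0.40, 0.0173). Genes called in all were then 1611 and 2312.

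Ccl2 and Ccl7, the monocyte chemokines, lie 8259 bases apart on chromosome 11 (Ccl2, ENSMUSG00000035385, 82035571 to 82037453; Ccl7, ENSMUSG00000035373, 82045712 to 82047525; both on the plus strand). Ccl2 behaved differently by replicate number. In replicate 1 it had 307 normalized counts in vehicle, 365 in E2, 949 in E2 plus fulvestrant and 652 in fulvestrant. In replicates 2 and 3 it stayed between 772 and 1039 and the libraries with and without fulvestrant overlapped. The log2 difference for E2 minus E2 plus fulvestrant was -1.38 in replicate 1, 0.12 in replicate 2 and 0.11 in replicate 3, and fitted over all 3 it was -0.38 (SE 0.30, limma adjusted p = 0.451). For fulvestrant minus vehicle it was 0.36 (SE 0.30, limma adjusted p = 0.472), with a 95% interval from -0.31 to 1.03.

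Ccl7 had 181, 771 and 670 normalized counts in vehicle and 166, 765 and 808 in E2. It had 307, 812 and 845 in E2 plus fulvestrant and 164, 875 and 1033 in fulvestrant. Both libraries with fulvestrant were above both without it in replicates 2 and 3, and they overlapped in replicate 1. The log2 differences were -0.35 for E2 minus E2 plus fulvestrant (limma adjusted p = 0.256) and 0.22 for fulvestrant minus vehicle (limma adjusted p = 0.458), with 95% intervals from -0.75 to 0.06 and from -0.18 to 0.63. By replicate number the first was -0.89, -0.09 and -0.06 and the second -0.14, 0.18 and 0.62. The first was -0.07 without replicate 1 of all groups (limma adjusted p = 0.667) and also -0.07 without E2 plus fulvestrant replicate 1 (0.806). The second ran from 0.02 without replicate 3 of all groups (limma adjusted p = 0.972) to 0.44 without fulvestrant replicate 1 (0.102).

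Lif (ENSMUSG00000034394; chromosome 11, 4257557 to 4272514, plus strand) was also split by replicate number. In replicate 1 it had 92.6 normalized counts in vehicle and 102 in E2, against 61.1 in E2 plus fulvestrant and 53.2 in fulvestrant. In replicate 2 the libraries with fulvestrant (157 and 169.6) were above those without it (125 and 149), and in replicate 3 they overlapped. For fulvestrant minus vehicle the log2 difference was -0.79 in replicate 1, 0.32 in replicate 2 and 0.37 in replicate 3, with a fitted value of -0.03 (SE 0.23, limma adjusted p = 0.943). The fitted value turned to 0.04 after quantile normalization. For E2 minus E2 plus fulvestrant it was 0.22 (limma adjusted p = 0.574), with a 95% interval from -0.28 to 0.73.

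Il33 (ENSMUSG00000024810; chromosome 19, 29925114 to 29960718, plus strand) had 110.3, 413 and 418 normalized counts in vehicle and 76.9, 505 and 469 in E2. It had 170.4, 355 and 386 in E2 plus fulvestrant and 98.8, 471 and 480.0 in fulvestrant. With E2 present, fulvestrant went with more Il33 in replicate 1 and less in replicates 2 and 3: the log2 difference for E2 minus E2 plus fulvestrant was -1.14, 0.51 and 0.28. The fitted value was -0.12 (SE 0.24, limma adjusted p = 0.808), and that for fulvestrant minus vehicle 0.08 (SE 0.24, limma adjusted p = 0.865), from 0.01 to 0.20 on leaving out libraries or replicate numbers.

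Nfkbia (ENSMUSG00000021025; chromosome 12, 55489410 to 55492647, minus strand), the inhibitor and target of NF-kappaB, varied least. It ranged from 851 to 1323 normalized counts over the 12 libraries, with group means of 1107 ± 238 (SD, n = 3) in vehicle, 1076 ± 154 in E2, 1165 ± 126 in E2 plus fulvestrant and 1174 ± 102 in fulvestrant. The log2 differences were -0.12 for E2 minus E2 plus fulvestrant (SE 0.077, limma adjusted p = 0.352) and 0.11 for fulvestrant minus vehicle (SE 0.077, limma adjusted p = 0.400). The 95% intervals ran from -0.29 to 0.05 and from -0.07 to 0.28.

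E2 alone called none of the 8 members against vehicle by limma, beside 0.0756% of all genes (10 genes, all higher with E2). Cxcl12 was the 1 member with an unadjusted p under 0.05, beside 1340 of all genes. Its log2 difference was -0.25 (SE 0.086, limma adjusted p = 0.468), with -0.51, -0.06 and -0.16 in replicates 1, 2 and 3. The other members lay between -0.03 for Nfkbia and 0.23 for Lif. Lif was higher with E2 in 3 of 3 replicate numbers, by 0.13, 0.24 and 0.31, and had a limma adjusted p of 0.738 and a 95% interval from -0.27 to 0.73. For Csf1 the difference was 0.01, with an interval from -0.20 to 0.22, and it was -0.06 after quantile normalization and -0.02 as CPM. With fulvestrant present, limma called 0 members and 0% of all genes for E2 plus fulvestrant minus fulvestrant (0 members and 255 genes had an unadjusted p under 0.05). The members' log2 differences ran from -0.01 for Cxcl12 to 0.29 for Cxcl1. The difference in the E2 effect with and without fulvestrant, the interaction, was likewise called for 0 members and 0% of all genes (0 members and 501 genes at an unadjusted p under 0.05). Cxcl12 had the largest interaction at 0.23 (SE 0.12, limma adjusted p = 0.944).

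The other genes of these pathways were counted on 5 lists, which include the members. Of 37 chemokine genes 10 were measured. Of these, 5 were called higher in E2 than in E2 plus fulvestrant and 0 were called lower, beside 9.6% of all genes. The median log2 was 0.30 over the 10, beside -0.01 over all genes. Between fulvestrant and vehicle 0 were called higher and 3 called lower, beside 12.5% of all genes (median -0.26, beside 0.01). Cxcl5, a neutrophil chemokine, was called in both: it had 199 ± 108 normalized counts (SD, n = 3) in vehicle, 155 ± 95.9 in E2, 71.5 ± 39.8 in E2 plus fulvestrant and 77.4 ± 45.8 in fulvestrant. Its log2 differences were 1.00 for E2 minus E2 plus fulvestrant (limma adjusted p = 0.00393) and -1.41 for fulvestrant minus vehicle (4.8e-04). Cxcl16, a membrane-bound chemokine for T cells, differed by 0.59 and -0.62 (0.00889 and 0.00576). Ccl11, which attracts eosinophils, was called in the first comparison (1.17, limma adjusted p = 0.0337; -0.36 and 0.483 in the second), at 63.2 ± 12.1 in E2 and 27.5 ± 4.48 in E2 plus fulvestrant. Cx3cl1, the chemokine fractalkine, was also called there (0.48, 0.0334). Cxcl1 and Cxcl5 signal to neutrophils through the same receptor, and their differences had opposite signs, although that of Cxcl1 was not called.

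Of 31 cytokines and growth factors of immune cells 12 were measured. Csf1 and Kitl, which encodes stem cell factor, were the 2 called lower in E2 than in E2 plus fulvestrant, beside 9.6% of all genes called, and none was called higher. Kitl differed by -0.50 (limma adjusted p = 0.0208). Between fulvestrant and vehicle, Csf1 and Mif, a macrophage cytokine, were called higher (Mif 0.43, limma adjusted p = 0.0221). Ctf1, which encodes the gp130 ligand cardiotrophin, was called lower (-0.63, 0.0269), beside 12.5% of all genes called. The median over the 12 was -0.12 for E2 minus E2 plus fulvestrant and 0.20 for fulvestrant minus vehicle.

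Of 26 receptor and decoy genes 17 were measured, and 8 were called in each comparison, beside 9.6% and 12.5% of all genes: 2 higher and 6 lower in E2 than in E2 plus fulvestrant, and 5 higher and 3 lower in fulvestrant than in vehicle. Both chains of the IL-33 receptor rose with fulvestrant. Il1rl1, which encodes ST2, had 257, 1756 and 1695 normalized counts in vehicle replicates 1, 2 and 3 and 317, 1843 and 1662 in E2. It had 1796, 3702 and 3654 in E2 plus fulvestrant and 1287, 4465 and 4568 in fulvestrant. Each library with fulvestrant was above both libraries of its number without it. The log2 differences were -1.55 for E2 minus E2 plus fulvestrant (SE 0.27, limma adjusted p = 0.00467) and 1.70 for fulvestrant minus vehicle (SE 0.27, limma adjusted p = 0.00227).

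Il1rap, the partner chain of ST2 and of the IL-1 receptor, had 771, 1210.1 and 1237 normalized counts in vehicle and 780.2, 1226 and 1089.9 in E2. It had 1296, 2095 and 2196 in E2 plus fulvestrant and 1364, 2257 and 2173 in fulvestrant, so that all 6 libraries with fulvestrant were above all 6 without it. Its log2 differences were -0.84 and 0.84 (limma adjusted p = 1.7e-05 and 2.0e-05). Without the replicate block the limma adjusted p was 0.858 and 0.781 for Il1rl1 and 0.444 and 0.398 for Il1rap. Il33 itself, the ligand, did not pass the test in either comparison.

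Ackr3, a scavenging receptor that binds CXCL12, also rose with fulvestrant as Cxcl12 fell. It had 611, 751 and 685 normalized counts in vehicle, 603, 608 and 606 in E2, 1249, 966 and 1023 in E2 plus fulvestrant and 917, 978 and 1052 in fulvestrant. The lowest library with fulvestrant was above the highest without it, in replicate 1 as in the others. The log2 differences were -0.82 (limma adjusted p = 7.5e-04) and 0.53 (0.00776), and 0.0150 and 0.0897 without the block. Ifngr1, a chain of the interferon-γ receptor, differed by -0.74 and 0.80 (0.00195 and 0.00105) and was called without the block in both comparisons (0.0335 and 0.0286). Tlr2, a receptor for bacterial lipoproteins, went the other way, by 1.03 and -0.92 (1.7e-04 and 3.4e-04). Il11ra1 was called at 0.31 (0.0228), but it has near-identical copies in the mouse genome, so its level is uncertain.

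The receptor chains for Lif and Il6 were looked at after their values were seen. Lifr was lower in fulvestrant than in vehicle (-0.46, limma adjusted p = 0.0126) and not called between E2 and E2 plus fulvestrant (0.26, 0.123). Il6st, which encodes gp130, was not called in either (0.17 for E2 minus E2 plus fulvestrant and 0.01 for fulvestrant minus vehicle, limma adjusted p = 0.295 and 0.973), nor was Il6ra (-0.55 and 0.66 in the same order, limma adjusted p = 0.153 and 0.0807). Tlr3 was also lower in fulvestrant than in vehicle (-0.39, limma adjusted p = 0.00536).

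Of 23 NF-kappaB subunits, inhibitors and feedback genes 22 were measured. Of these 1 was called higher and 2 lower in E2 than in E2 plus fulvestrant, and 0 were called higher and 2 lower in fulvestrant than in vehicle, beside 9.6% and 12.5% of all genes called. The median log2 difference over the 22 was -0.06 and -0.00. Vcam1, an adhesion molecule induced by NF-kappaB, was the 1 gene called in both (0.46 and -0.48, limma adjusted p = 0.0189 and 0.0126). The adhesion molecule Icam1 (-0.28, 0.0463) and the inhibitor Nfkbib (-0.34, 0.0414) were called the other way in the first comparison. Tnfaip3, a feedback inhibitor, was lower with fulvestrant in the second (-0.53, 0.0110). None of these 4 genes was called without the block.

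Of the genes of gp130, JAK and STAT3 signalling, 16 were counted. In E2 compared with E2 plus fulvestrant 0 were called higher and 3 lower, and in fulvestrant compared with vehicle 4 were called higher and 0 lower, beside 9.6% and 12.5% of all genes called. Cebpd and Cebpb, transcription factors of the acute-phase response, were higher with fulvestrant in both: Cebpd by log2 -1.30 for E2 minus E2 plus fulvestrant and 1.11 for fulvestrant minus vehicle (limma adjusted p = 0.0152 and 0.0247), and Cebpb by -0.56 and 0.57 (9.3e-05 and 8.8e-05). Junb, a subunit of AP-1, was also higher with fulvestrant (-0.41 and 0.46, 0.0480 and 0.0252), and so was the repressor Bcl6 against vehicle (0.51, 0.00730). The median over the 16 was -0.07 and 0.10, and Stat3 and Socs3 were not called.

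**Figure D4:**
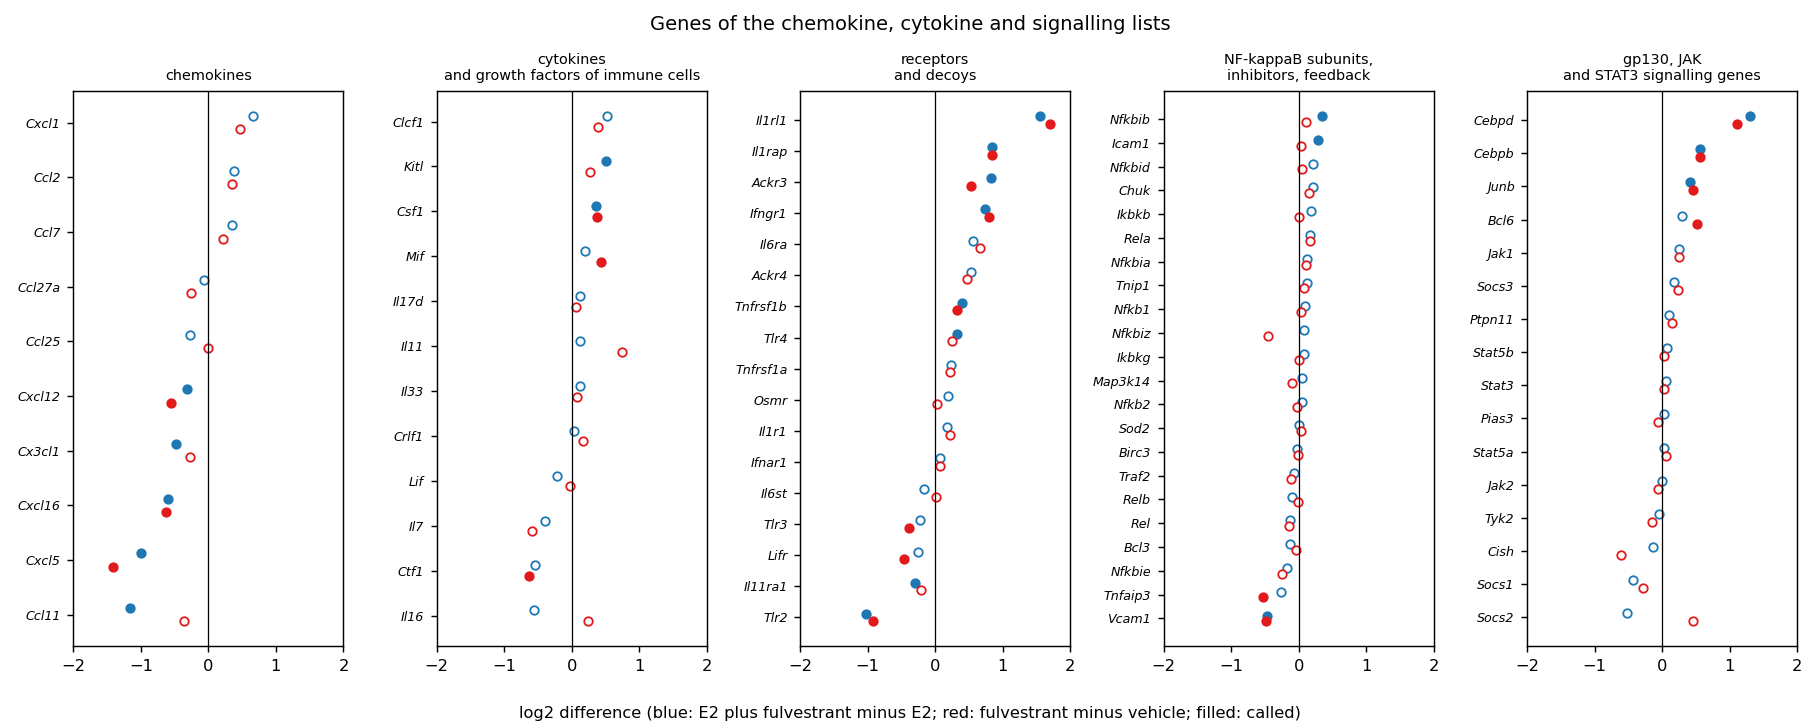
Log2 difference of the normalized count + 1 (horizontal axes) for every measured gene of the 5 lists, between E2 plus fulvestrant and E2 (blue) and between fulvestrant and vehicle (red), with filled points for called genes. Il1rl1, Il1rap, Ackr3 and Ifngr1 lie to the right among the receptors and Cxcl5, Cxcl16 and Cxcl12 to the left among the chemokines.

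For E2 against vehicle limma called 0 genes of each list. At an unadjusted p under 0.05 there were 3 chemokines, 2 cytokines, 2 receptors, 3 NF-kappaB genes and 3 genes of the last list. Of all 13233 genes 1340 were under it. For E2 plus fulvestrant against fulvestrant limma called 0 of each list, with 0 at an unadjusted p under 0.05. The lists' calls also rest on the replicate block. Without it, no chemokine, cytokine, NF-kappaB gene or gene of the gp130 list was called by limma in either comparison with fulvestrant, and the receptors called were Ackr3 and Ifngr1 (2 genes) between E2 and E2 plus fulvestrant and Ifngr1 between fulvestrant and vehicle. Leaving out 1 library or 1 replicate number gave 0 to 6 chemokines called between E2 and E2 plus fulvestrant and 1 to 7 between fulvestrant and vehicle. The receptors gave 4 to 9 in both. The cytokines gave 0 to 4 in both, and the NF-kappaB genes 0 to 3 and 0 to 4. The gp130 list gave 1 to 5 and 1 to 4. Leaving out replicate 3 of all groups gave the lowest count of every list in both comparisons. Over these 15 fits Il1rap, Ifngr1, Tlr2 and Cebpb were called each time in both comparisons. The other called genes named above are given here with the number of the 15 fits that called them. Between E2 and E2 plus fulvestrant Ackr3 was called in 15 and Il1rl1 in 14. Cxcl5 and Cxcl16 were called in 13 and Cebpd in 11. Cx3cl1 and Vcam1 were called in 9, and Cxcl12, Csf1 and Kitl in 8. Il11ra1 was called in 7, Ccl11 in 6, Nfkbib in 5, Junb in 4 and Icam1 in 3. Between fulvestrant and vehicle Cxcl5 and Il1rl1 were called in 15, and Cxcl12, Cxcl16 and Ackr3 in 14. Bcl6, Vcam1 and Tlr3 were called in 13, Tnfaip3 in 12, and Junb and Lifr in 10. Csf1, Mif and Cebpd were called in 9, and Ctf1 in 8.

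Of these genes 5 also moved by more than 1.5 times in size when libraries were left out. Without replicate 1 of all groups Cebpd differed by log2 -0.83 for E2 minus E2 plus fulvestrant and 0.65 for fulvestrant minus vehicle, and it was called in both (limma adjusted p = 4.0e-05 and 1.4e-04). In the second comparison Bcl6 then differed by 0.32, Junb by 0.30 and Vcam1 by -0.30, all called. Vcam1 was also at -0.30 without fulvestrant replicate 1 and Junb at 0.27 without vehicle replicate 1, both called. Between E2 and E2 plus fulvestrant Junb was at -0.27 without E2 plus fulvestrant replicate 1 and not called (limma adjusted p = 0.203). Mif was at 0.27 without fulvestrant replicate 3 and 0.24 without replicate 3 of all groups, and not called in either fit (limma adjusted p = 0.0799 and 0.251).

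Once the mean of each replicate number was subtracted, some members moved together over the 12 libraries. Cxcl12 had a Pearson r of -0.88 with Csf1 and -0.81 with Cxcl1. Cxcl1 had an r of 0.81 with Ccl7 and 0.79 with Csf1, and Ccl2 an r of 0.80 with Nfkbia and -0.76 with Lif. Ccl2 and Ccl7, the neighbours on chromosome 11, had an r of 0.63. Without the subtraction Cxcl1 and Ccl7 had an r of 0.99 and Cxcl12 and Csf1 one of 0.29. These values describe 12 libraries that share treatments, replicate numbers and scaling factors.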

How the data were processed

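RNA was measured by RNA-Seq (ribosomal RNA depletion) in 12 samples of HAFs, grouped by the treatment in the labels. According to the study's methods and the submitters' processing notes, the authors trimmed reads with Trimmomatic 0.39, aligned them to mm10 with STAR 2.5.2, counted them by gene and strand with HTSeq 0.13.5, removed counts under 10 and normalized with DESeq2 1.37. What the authors deposited is a signal value for each gene in each sample, a normalized count made by dividing reads by a factor per sample, since 100% of values were whole reads within 0.1 read once multiplied by that factor. Their methods also name batch adjustment, but the values still separate by replicate number. No count test was run.

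From these values, log2(value + 1) was fitted with limma 3.58.1 (R 4.3.3; eBayes with a variance trend) on all 12 samples, with group and replicate number as terms, and the Benjamini-Hochberg adjustment ran over 13233 genes. The replicate block was used because every group has 1 sample of each number and the study's methods adjusted for batches. The labels do not say what a number stands for. Deviations of same-numbered samples from their group means correlated at 0.63 to 0.92 over 18 pairs. Those of replicates 2 and 3 correlated at 0.63 to 0.79 over 12 pairs. These ranges overlap, so the correlations do not show that the numbers pair the samples. Calls needed an adjusted p under 0.05 and a fold over 1.2. At low read numbers this scale understates a fold. Symbols (13149 genes), positions and exon lengths came from the GENCODE annotation of GRCm38. No exon of a member overlaps in position with an exon of another gene. Likeness of sequence between the members and other genes was not examined. Promoter windows came from RefSeq. The fit was tested on simulated data for E2 minus vehicle. Of genes changed by log2 0.5 it called 60% in the right direction, and of those changed by log2 1 it called 100%. Changes below log2 0.5 were not simulated, and the simulated replicate differences were the same in every group.

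The members and lists were chosen with earlier results of these data known. All members analysed are named, and of each list at most the 4 called genes with the largest differences in each direction. A gene of the gp130 list is not reported here, and the counts of that list leave it out. Alternatives were no replicate block, only the groups compared, pseudocounts of 0.5 and 10, a mean of at least 100, CPM, quantile normalization, no variance trend, calls by adjusted p without a fold, and the removal of each library or replicate number. A fit without the block on only the groups compared was added after seeing the data. Scripts used Python 3.11.15.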

Additional observations from a re-analysis of the deposited data

How the results depend on the processing

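The replicate block decided the calls. Without the replicate block limma called 0 members and 69 genes between E2 and E2 plus fulvestrant, 0 members and 72 genes between fulvestrant and vehicle, and 1 gene between E2 and vehicle. An alternative added after seeing the data left out the block and used only the groups compared. In the same order, it called 0 members and 8 genes, 0 members and 0 genes, and 0 genes. A fit of only the groups compared that kept the replicate block called 1 member and 692 genes between fulvestrant and vehicle. That fit called 57 genes between E2 and vehicle. Between E2 and E2 plus fulvestrant it called 1148 genes, among them Cxcl12 (limma adjusted p = 0.0450), Csf1 (0.0219) and Cxcl1 (0.0225). With no variance trend 0 members were called between E2 and E2 plus fulvestrant, 1 between fulvestrant and vehicle, and 3 genes between E2 and vehicle. The cause of these changes was not tested. The pseudocounts, the filter on means, quantile normalization, CPM and adjusted p alone left the counts of members called as they were, apart from Cxcl1, for which the report gives the values.

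Leaving out each library or replicate number gave 0 to 4 members and 316 to 1611 genes called between E2 and E2 plus fulvestrant, 0 to 4 members and 399 to 2312 genes between fulvestrant and vehicle, 0 to 59 genes between E2 and vehicle, 0 to 4 between E2 plus fulvestrant and fulvestrant, and 0 to 11 for the interaction. For the replicate number itself 0 to 8 members were called. Leaving out replicate 1 gave the upper end of each range but that of the replicate number, where it gave the lower end, and leaving out replicate 3 gave the 316 and 399 genes. Where a left-out library leaves a group with 2 samples, limma takes their spread from all groups.

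Signs turned for some differences that were not called. After quantile normalization Csf1 was at -0.057 for E2 minus vehicle and 0.052 for the interaction, and Lif at 0.040 for fulvestrant minus vehicle. As CPM, Csf1 was at -0.024 and 0.018, and Il33 at -0.017 for E2 plus fulvestrant minus fulvestrant and -0.00034 for the interaction. Some signs also turned on leaving out libraries. For E2 minus vehicle, the log2 difference ran for Cxcl1 from -0.12 to 0.30, Ccl2 from -0.38 to 0.28, Ccl7 from -0.068 to 0.13, Csf1 from -0.081 to 0.070, Il33 from -0.21 to 0.28 and Nfkbia from -0.11 to 0.070. For E2 minus E2 plus fulvestrant, the log2 difference ran for Ccl2 from -0.63 to 0.11, Lif from -0.028 to 0.43 and Il33 from -0.43 to 0.40. For fulvestrant minus vehicle, the log2 difference ran for Ccl2 from -0.017 to 0.67, Lif from -0.23 to 0.34 and Nfkbia from -0.0011 to 0.23. For E2 plus fulvestrant minus fulvestrant, the log2 difference ran for Cxcl12 from -0.083 to 0.057, Cxcl1 from -0.041 to 0.50, Ccl2 from -0.44 to 0.27, Ccl7 from -0.20 to 0.40, Csf1 from -0.14 to 0.081, Lif from -0.22 to 0.20, Il33 from -0.37 to 0.25 and Nfkbia from -0.079 to 0.047. For the interaction of E2 and fulvestrant, the log2 difference ran for Cxcl1 from -0.079 to 0.39, Ccl2 from -0.43 to 0.40, Ccl7 from -0.33 to 0.46, Csf1 from -0.15 to 0.081, Il33 from -0.59 to 0.41 and Nfkbia from -0.083 to 0.096. None of these differences was called with all libraries.

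With 3 libraries a group, the intervals of Cxcl1, Ccl2, Ccl7, Lif and Il33 are wide. Every listed gene had at least 10 reads in each library, so genes with fewer reads in any library are not among those measured.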

Other observations

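For each member, the gene of the table whose log2 values were most like it was found by Pearson's r over the 12 libraries after the mean of each replicate number was subtracted. Csf1 was most like Txnrd1, which encodes a thioredoxin reductase (r = 0.99), and Cxcl12 was most like Zfyve1 (r = 0.97). Cxcl1 was most like Tfe3, a transcription factor of lysosomal genes (r = 0.94), Ccl2 like Ppp2r3c (r = 0.97) and Ccl7 like Cox7b, a subunit of cytochrome c oxidase (r = 0.92). Lif was most like the mitotic kinase gene Nek2 (r = 0.97), Il33 like Fbxo46 (r = 0.90) and Nfkbia like Zfp459 (r = 0.89). Each is the highest value over 13233 genes and 12 libraries that share treatments and scaling factors, and is given as a description.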
